A study of Mus musculus with 4 samples.

Results

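The cells described here are tendon-like fibroblasts of mouse synovium, the soft tissue that lines joints and tendon sheaths. They numbered 162 of the 4096 fibroblasts in 2 synovium libraries and of the 30943 cell barcodes in all 4 libraries of the series. They were chosen by their own transcript counts. A synovial barcode with at least 500 unique molecular identifiers (UMIs, each a counted transcript molecule) and at most 20% of them mitochondrial was called a fibroblast when Col1a1, Col1a2, Col3a1 and Dcn together had at least 20 UMIs and neither Ptprc, a leukocyte gene, nor Cdh5, an endothelial gene, had any. A fibroblast was called tendon-like when Tnmd, Chad, Thbs4 and Kera together had at least 4 UMIs and when gene pairs that mark other synovial fibroblasts stayed low. Those limits were fewer than 5 UMIs of Mmp13 and Ibsp, fewer than 3 of Pi16 and Dpp4, fewer than 5 of Cxcl14 and Smoc2, and fewer than 3 of Gdf10 and Myoc.

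The study set TNF+ mice, which carry 1 copy of a human TNF transgene (line 3647) and develop inflammatory arthritis with lung disease, beside TNF- wild-type littermates. All were C57BL/6 females aged 4 months. Viable cells of synovium and of lung were sorted and sequenced with a 3′ single-cell kit, and synovial cells of 5 to 10 mice per genotype were pooled into 1 library. With 1 library per genotype and tissue, animals cannot be told apart from genotypes, so every comparison below sets 1 pool against another and carries no p-value. Intervals are 95% intervals for counting error only (exact Poisson for levels, Clopper-Pearson for shares, conditional binomial for ratios), and they hold no spread between mice.

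Tendon is made by tenocytes, fibroblasts that lay down parallel type I collagen fibrils. The transcription factors scleraxis (Scx) and mohawk (Mkx) set up and keep the lineage, and early growth response 1 (Egr1) answers mechanical load. Tenocytes also secrete small leucine-rich proteoglycans, among them fibromodulin (Fmod), keratocan (Kera) and chondroadherin (Chad), which bind collagen and steer fibril width, and the pentameric glycoproteins thrombospondin 4 (Thbs4) and cartilage oligomeric matrix protein (Comp). Tenomodulin (Tnmd) is a membrane protein found in mature tendon and ligament, and cartilage intermediate layer protein 2 (Cilp2) is a matrix protein of tendon insertions and deep cartilage.

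The stretches before the annotated starts of 3 of the selecting genes and of Fmod are shown because their transcripts define and describe these cells. They are the 250 RefSeq bases upstream of each start on build GRCm38.p6 (222 for Tnmd), written 5′ to 3′ on the strand of the gene. Capitals mark the letters CANNTG, the core of the E-box that Scx and other basic helix-loop-helix factors bind.
Tnmd (chrX:133850758-133850979, strand +): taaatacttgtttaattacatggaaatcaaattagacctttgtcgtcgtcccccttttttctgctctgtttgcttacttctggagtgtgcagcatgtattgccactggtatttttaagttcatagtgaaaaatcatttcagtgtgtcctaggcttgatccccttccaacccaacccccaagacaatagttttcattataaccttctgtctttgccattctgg
Chad (chr11:94564797-94565046, strand +): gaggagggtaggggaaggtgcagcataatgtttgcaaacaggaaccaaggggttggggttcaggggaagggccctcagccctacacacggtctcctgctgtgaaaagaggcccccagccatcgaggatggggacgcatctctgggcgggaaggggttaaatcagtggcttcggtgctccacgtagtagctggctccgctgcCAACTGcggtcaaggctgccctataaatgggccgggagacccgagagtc
Thbs4 (chr13:92794819-92795068, strand -): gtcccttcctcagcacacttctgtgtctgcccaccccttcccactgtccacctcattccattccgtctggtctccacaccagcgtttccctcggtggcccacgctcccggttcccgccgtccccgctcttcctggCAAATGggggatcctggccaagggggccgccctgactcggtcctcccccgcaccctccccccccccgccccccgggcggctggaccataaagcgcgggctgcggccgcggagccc
Fmod (chr1:134037004-134037253, strand +): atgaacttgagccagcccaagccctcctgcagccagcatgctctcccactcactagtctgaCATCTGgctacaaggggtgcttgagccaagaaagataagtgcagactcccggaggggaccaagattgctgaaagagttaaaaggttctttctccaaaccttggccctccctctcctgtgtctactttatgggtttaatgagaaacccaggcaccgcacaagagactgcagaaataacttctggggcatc
Chad, Thbs4 and Fmod each had 1 match and Tnmd had 0 in these windows. Among 32851 RefSeq promoter windows, 66.2% held at least 1 match within 250 upstream bases, with a median of 1 match. Both strands are covered, since CANNTG reads the same on either. A match is a description of letters and not a site.

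There were 121 tendon-like cells in the TNF- library and 41 in the TNF+ library. They made up 3.44% (2.86 to 4.10) of 3515 TNF- fibroblasts and 7.06% (5.11 to 9.45) of 581 TNF+ fibroblasts. Without the cells outside the cluster that carried the tendon profile, described below, the shares were 3.10% (2.55 to 3.73, 109 cells) and 4.30% (2.80 to 6.29, 25 cells), with intervals that overlapped. Over all barcodes that passed the filter the order was the opposite, 1.82% (1.51 to 2.17) of 6638 in TNF- and 1.17% (0.842 to 1.59) of 3498 in TNF+. Thinned to 3000 UMIs per cell, the shares of fibroblasts were 6.01% (207 of 3447) and 15% (82 of 546). The limits of the rule are in raw UMIs, so thinning lowers the excluding genes as well. In lung, 1 of 343 TNF- barcodes and 0 of 35 TNF+ barcodes met the same rule, and 0 of 35 allows a share of up to 8.57% when 3 counts are taken as the limit. No tendon-like barcode was among the 5 that the synovium libraries shared, while 1 of the TNF- tendon-like barcodes was also found in TNF- lung and 1 in TNF+ lung.

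The exclusions removed most fibroblasts that carried tendon transcripts. Without them, 481 TNF- fibroblasts (13.7%) and 187 TNF+ fibroblasts (32.2%) had at least 4 UMIs of the 4 tendon genes, and the rule kept 25.2% and 21.9% of these. In TNF- the limit on Gdf10 and Myoc applied to 298 of the 481 and that on Cxcl14 and Smoc2 to 237. In TNF+ the limit on Cxcl14 and Smoc2 applied to 111 of the 187. The tendon-like cells were shallower than other fibroblasts, with median totals of 8157 and 7746 UMIs in TNF- and TNF+, against 15661 and 16608 for all fibroblasts of each library.

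The 4 selecting genes were unequal. Thbs4 had the most UMIs of the 4 in 111 of 121 TNF- and 40 of 41 TNF+ tendon-like cells, with a range of 0 to 246 and a median of 50 UMIs per TNF- cell and a range of 3 to 423 and a median of 30 per TNF+ cell. Tnmd was seen in 101 TNF- and 23 TNF+ cells, Chad in 86 and 21, and Kera in 69 and 19. All 4 genes were seen together in 45 TNF- and 13 TNF+ cells. Cells with a single gene of the 4 numbered 5 of 121 in TNF- and 12 of 41 in TNF+. The summed UMIs ran from 4 to 292 with a median of 74 in TNF-, and from 4 to 448 with a median of 41 in TNF+. Just inside the threshold, with 4 to 7 UMIs, lay 4 TNF- and 7 TNF+ cells. Just outside it, with 1 to 3 UMIs and past every exclusion, lay 12 and 16 cells. In TNF- the 4 cells inside had a Fmod level of 210 CPM, its summed UMIs scaled to a common total of 1000000, and the 12 outside had 135, against 6803 in the 117 cells with 8 or more.

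The cells were then described by genes that the rule did not use. The 4096 fibroblasts were clustered without the genes of the rule, which gave 14 clusters. A single cluster of 323 cells, led by Cilp2, Fmod, Angptl7, Wif1 and Chodl, held 109 of the 121 TNF- tendon-like cells (90.1%) and 25 of the 41 TNF+ ones (61.0%). It also held 150 TNF- and 37 TNF+ fibroblasts with at least 4 tendon UMIs that the exclusions had removed, and only 2 cells with fewer than 4. For this cluster, called the main cluster below, Fmod, Cilp2, Comp, Scx and Mkx were higher than in fibroblasts with fewer than 4 tendon UMIs. The clustering could draw on these genes, so they describe the cluster and are no separate check of the tendon label. The removed cells of the main cluster had 758 CPM of Gdf10 and Myoc in TNF- and 484 in TNF+, and the tendon-like cells of that cluster had 55.6 and 70.4. The rule limits these genes and so fixed that order. Leukocytes of the same libraries, which the rule did not choose, had 7.67 and 0.569 CPM.

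**Figure D1:**
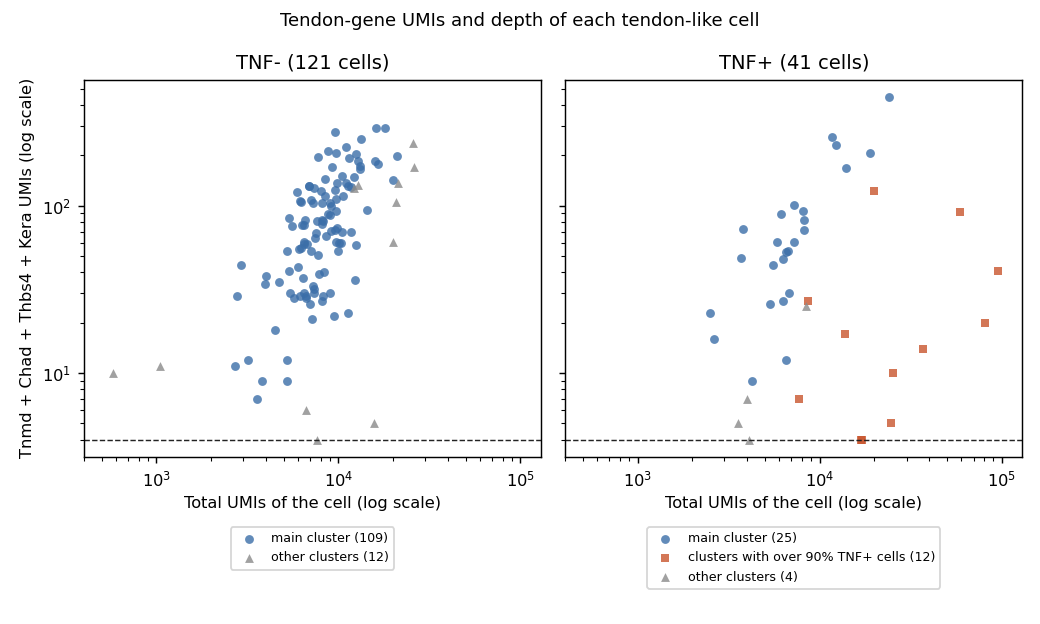
Each point is 1 tendon-like cell, with its total UMIs on the horizontal axis and its summed Tnmd, Chad, Thbs4 and Kera UMIs on the vertical axis, both logarithmic, for 121 TNF- cells (left) and 41 TNF+ cells (right). Circles are cells of the main cluster, squares are cells of 2 clusters made almost wholly of TNF+ fibroblasts, triangles are cells of other clusters, and the dashed line is the selection threshold of 4 UMIs. Squares lie at high depth, up to 95554 UMIs, and mostly at low tendon UMIs.

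Of the other 16 TNF+ cells, 12 lay in 2 clusters that were over 90% TNF+ (8 cells in a cluster led by Spp1, Tnn and Cthrc1, and 4 in a cluster led by Csmd1, Ccl19 and Saa3), and 4 in a cluster led by Sfrp2 and Sfrp4. The latter 4 cells, of 3569 to 8394 UMIs, all held Fmod (93 UMIs, 61 of them in 1 cell), and 2 of them held Tnmd. The 12 cells ranged from 7746 to 95554 UMIs with a median of 22245, and held 406129 UMIs, 65.0% of all UMIs of TNF+ tendon-like cells, against 198865 or 31.8% in the 25 cells of the main cluster. In 10 of the 12, Thbs4 was the only selecting gene present. Kera had 0 UMIs in the 12 cells, Chad was seen in 1, Tnmd in 2, Fmod in 4 and Scx in 2. A single cell of the 12 had a tendon profile, with 17 Tnmd, 14 Chad, 92 Thbs4, 91 Fmod, 11 Cilp2 and 47 Comp UMIs, and it held 91 of the 96 Fmod UMIs of the 12. For the other 11 cells the data went against the tendon label.

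The 12 cells carried inflammatory transcripts that were not seen, or nearly so, in the 25 TNF+ tendon-like cells of the main cluster. The acute-phase gene Saa3 had 1907 UMIs in 7 of them, and the haptoglobin gene Hp had 1073 in 8. The chemokine genes Ccl5 and Cxcl5 had 1172 UMIs in 9 cells and 417 in 7, and the matrix-degrading protease gene Mmp3 had 689 in 9. In the 25 TNF+ cells of the main cluster, Saa3, Cxcl5, Mmp3 and Ccl5 each had 0 UMIs, which allows up to 15.1 CPM, and Hp had 2. Of the 37 removed TNF+ cells of the main cluster, 7 held Mmp3 (53 UMIs), 3 held Saa3 (46 UMIs, 44 of them in 1 cell) and 1 held Ccl5 (9 UMIs). Single cells dominated some genes. A single cell held 3463 of the 4448 Prg4 UMIs of the 12, a single cell held 2203 of 2845 Timp1 UMIs, and a single cell held 535 of 588 Spp1 UMIs.

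The comparison of all TNF+ with all TNF- tendon-like cells therefore mixed different cells. Summed over 121 and 41 cells, 807 of 5759 genes with a mean of at least 20 CPM were 2-fold or more higher in TNF+ (14.0% of those compared) and 880 were 2-fold or more lower (15.3%). With median-of-ratios scaling in place of CPM the split was 986 higher and 709 lower. By the naming rule, which asks for an interval wholly past 2-fold, a minimum level and detection in at least 10% of cells, 205 genes were higher and 164 lower. The 15 named higher were led by Saa3 (0 UMIs in TNF-, 3051 CPM in TNF+, 10.14 higher on the log2 scale against a floor of 3 UMIs, with a lower limit of 9.84), Cxcl2 (0.904 and 818 CPM), Hp (0 and 1720), Ccl5 (4.52 and 1875) and Mmp3 (3.62 and 1104). The other 10 were Cxcl5, Spp1, Tnn, Vcam1, Slc7a2, Nos2, Lcn2, Csmd1, Cryaa and AA467197. Between 96.0% and 100% of the TNF+ UMIs of each of the 15 lay outside the main cluster. Csmd1 was 5.92 higher on the log2 scale over all cells and -1.23 within the main cluster, with an interval of -6.65 to 1.56. Fmod changed sign as well, at -0.77 over all cells and 0.69 within the main cluster. The genotypes are therefore compared within the main cluster in what follows, a choice made after these values were seen.

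**Figure D2:**
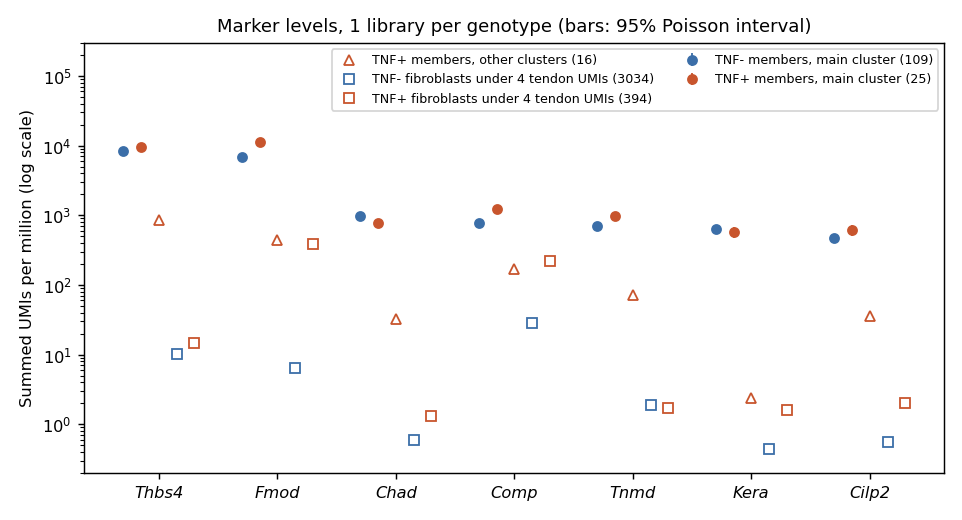
Levels of the 7 marker genes in summed CPM on a logarithmic axis. Filled circles are tendon-like cells of the main cluster (109 TNF- and 25 TNF+ cells) with 95% Poisson intervals mostly smaller than the symbol, triangles the 16 other TNF+ tendon-like cells, and squares the fibroblasts with fewer than 4 tendon UMIs (3034 and 394). Each marker is higher in the main cluster of both genotypes than in the other groups of cells. Thbs4 had 8238 and 9439 CPM in the main cluster and 842 CPM in the triangles. Thbs4, Tnmd, Chad and Kera chose the cells, so the rule fixed their order against the squares. Fmod, Cilp2 and Comp are outside the rule, but the clustering could draw on them.

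Across the main cluster 454 of 5560 genes (8.17%) were 2-fold or more higher in TNF+ and 665 (12.0%) were 2-fold or more lower, and the median log2 difference of all genes outside the rule was -0.03. These shares are the background for each list below. The TNF+ side holds 25 cells, so single cells weigh on it. When each gene was taken without the cell that held most of its UMIs, 188 of the 454 were still 2-fold higher (the cell left out on the TNF+ side) and 506 of the 665 still 2-fold lower (on the TNF- side). This was done after the values were seen, and it works against the genotype with the higher level. Where it ends a call or turns a direction, the value without that cell is given.

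No marker of tendon reached a 2-fold difference between genotypes in the main cluster. In the main cluster Thbs4 had 8238 CPM (8055 to 8424) in TNF- and 9439 (9016 to 9875) in TNF+, a log2 difference of 0.20, or 0.01 without the TNF+ cell with most Thbs4. Fmod was higher in TNF+, at 6967 (6799 to 7138) and 11254 CPM (10792 to 11730), a difference of 0.69 (0.62 to 0.76). It was present in every cell, with 1 to 210 UMIs and a median of 55 in the 109 TNF- cells, and 7 to 269 UMIs and a median of 92 in the 25 TNF+ cells, so the groups overlapped. Comp differed by 0.69 (768 and 1237 CPM), Tnmd by 0.47 (705 and 976) and Cilp2 by 0.37 (476 and 613). A single TNF+ cell held 76 of 194 Tnmd UMIs and another 37 of 122 Cilp2 UMIs, and without that cell the levels were 656 and 456 CPM, differences of -0.10 and -0.06. Chad and Kera were lower in TNF+, Chad by -0.35 (975 and 764) and Kera by -0.15 (637 and 573), the latter with an interval of -0.45 to 0.14 that includes 0. The 4 selecting genes are given as a description only.

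Thbs4 lies on chromosome 13 (92751590 to 92794818, minus strand), Fmod on chromosome 1 (134037254 to 134048277, plus), Tnmd on chromosome X (133850980 to 133865577, plus) and Chad on chromosome 11 (94565047 to 94569127, plus). Comp (70373558 to 70382066, plus) and Cilp2 (69880369 to 69887687, minus) lie on chromosome 8, and Kera on chromosome 10 (97606879 to 97613692, plus). Positions are whole genes on mm10.

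The transcription factors of the lineage did not move together. Scx had 159 CPM in TNF- and 151 in TNF+, with an interval of the log2 difference of -0.70 to 0.50, but 1 TNF+ cell held 18 of its 30 UMIs, and without it the level was 68.7 CPM, a difference of -1.21. Mkx was higher by 0.47 (207 and 287 CPM, interval 0.01 to 0.90), and 45.6% of its TNF+ UMIs came from 1 cell, without which the difference was -0.32. Egr1 was lower by -1.46 (3244 and 1177 CPM) and Eya2 by -1.37 (169 and 65.4 CPM), so 2 of 7 compared were 2-fold or more lower and 0 higher, beside 12.0% and 8.17% of all genes. Egr1 is also raised by tissue dissociation. It was lower in TNF+ fibroblasts with fewer than 4 tendon UMIs (2860 and 481 CPM) and in TNF+ leukocytes (340 and 44.4 CPM) too, and of 17 immediate-early genes 4 were 2-fold or more lower in the main cluster and 2 higher, beside the same 12.0% and 8.17%. The 4 were Egr1, Btg2, Zfp36 and Klf2. The 2 higher, the heat shock genes Hspa1a and Hspa1b, were at 0.23 and 0.41 without the TNF+ cell with most of their UMIs. The part of dissociation in these values was not tested.

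Genes of collagen and its crosslinking went both ways in TNF+ cells of the main cluster. Of 18 genes of collagen processing, 2 were 2-fold or more higher (Lox and Pcolce2) and 2 lower (Loxl1 and Plod1), shares near the background of 8.17% and 12.0%. Lox, which encodes the enzyme that crosslinks collagen, was higher by 1.26 (532 and 1277 CPM, interval 1.04 to 1.48). It was seen in 83 of 109 TNF- cells, with 0 to 22 UMIs and a median of 2. In TNF+ it was seen in 25 of 25 cells, with 1 to 30 UMIs and a median of 8. Fibroblasts with fewer than 4 tendon UMIs had 59 CPM of Lox in TNF- and 292 in TNF+. Loxl1, a related enzyme, had 59.8 CPM in TNF- and 20.1 in TNF+ (interval of the log2 difference -3.50 to -0.14), and the lysyl hydroxylase gene Plod1 had 69.5 and 30.2 (interval -2.70 to -0.00). Ccn2, the connective tissue growth factor gene and a target of mechanical signalling, was higher by 1.33 (803 and 2016 CPM). Serpinf1, which encodes pigment epithelium-derived factor, was higher by 1.10 (1833 and 3917 CPM), and Tnxb, the tenascin X gene, by 1.05 (189 and 392 CPM). Without the TNF+ cell with most of their UMIs, Ccn2 was at 0.93, Serpinf1 at 0.96 and Tnxb at 0.98. Pcolce2, an enhancer of procollagen processing, was higher by 1.96 (98.3 and 382 CPM). In fibroblasts with fewer than 4 tendon UMIs, whose mix of clusters differed by genotype, Pcolce2 went the other way, from 309 to 87.3 CPM.

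Of 10 fibril collagen genes outside the rule, 1 was 2-fold or more higher and 0 lower, beside 8.17% and 12.0% of all genes, with a median of 0.34. The 1, Col16a1, was at 1.04 and at 0.85 without the TNF+ cell with most of its UMIs. Col1a1 and Col1a2, which encode the chains of type I collagen, chose the cells and are given as a description. They had 3082 and 3166 CPM in TNF- and 6145 and 7156 in TNF+. Without the TNF+ cell with most of their UMIs, the TNF+ levels were 4555 and 5596 CPM, log2 differences of 0.56 and 0.82. In fibroblasts with fewer than 4 tendon UMIs, Col1a1 and Col1a2 had 1298 and 1794 CPM in TNF- and 10269 and 7465 in TNF+. Col12a1 was lower by -0.62 (1120 and 729 CPM). Of 8 small leucine-rich proteoglycan genes outside the rule, 0 were 2-fold higher and 1, Aspn, was lower by -1.20 (509 and 221 CPM), a share close to the 12.0% of all genes. Ogn was lower by -0.94 (2424 and 1262 CPM).

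By their intervals, 25 genes that met the minimums of the naming rule lay wholly past 2-fold on the higher side and 25 on the lower side, and the 15 with the largest difference on each side were taken.

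The 15 named higher were led by Hmox1, which encodes the heme-degrading enzyme heme oxygenase 1. It had 69.5 CPM (53.6 to 88.5) in TNF- and 1217 (1068 to 1380) in TNF+, 4.13 higher on the log2 scale. It was seen in 21 of 109 and 17 of 25 cells, with at most 15 UMIs in a TNF- cell and at most 71 in a TNF+ cell, and medians of 0 and 4. After thinning to 3000 UMIs, which left out 3 and 2 cells, the shares with a UMI were 14.2% and 60.9%. Hmox1 was also far higher in TNF+ leukocytes (108 and 3453 CPM, with thinned shares of 15.5% and 79.4%) and in fibroblasts with fewer than 4 tendon UMIs (89.5 and 816 CPM). The level in leukocytes exceeded that in tendon-like cells, so the part of free RNA in the Hmox1 difference was not tested. The median depths of the tendon-like cells were 8105 and 6558 UMIs.

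Complement C3, the central protein of the complement cascade, was higher by 2.65 (2.42 to 2.88), at 292 CPM (258 to 329) in TNF- and 1830 (1647 to 2028) in TNF+. It was seen in 39 of 109 TNF- cells, with a median of 0 and a maximum of 28 UMIs, and in 22 of 25 TNF+ cells, with a median of 10 and a maximum of 58. Thinned shares were 25.5% and 82.6%, beside 8.2% and 40.4% of leukocytes, whose C3 levels were 38.5 and 203 CPM. The tendon-like cells had less C3 than other fibroblasts of their library, since fibroblasts with fewer than 4 tendon UMIs had 1371 CPM in TNF- and 3129 in TNF+, a log2 difference of 1.19. Of 7 complement genes compared in the main cluster 4 were 2-fold or more higher, C3, C1ra and Clu among them, and 1, Cr1l, was lower, with a median of 1.23. C1ra, a protease of the classical pathway, had 74.8 and 176 CPM, and its difference of 1.23 was 0.95 without 1 TNF+ cell. Clu, which encodes the complement inhibitor clusterin, had 58.8 and 231 CPM. Cfb, of the alternative pathway, was not compared, with 2 UMIs in TNF- and 6 in TNF+, while the TNF+ tendon-like cells outside the main cluster had 91 Cfb UMIs in 14 of 16 cells.

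Several chemokine genes were higher in TNF+. Ccl2, which draws monocytes, had 87.6 and 608 CPM, a difference of 2.80 (2.38 to 3.22), and was seen in 15 of 109 and 10 of 25 cells. Its thinned shares were 8.49% and 26.1%, with intervals that overlapped. Of 7 cytokine and chemokine genes compared 5 were 2-fold or more higher (Ccl2, Ccl7, Cxcl1, Csf1 and Cxcl12) and 1 was lower, Cxcl10, which had 44.9 CPM in TNF- and 0 UMIs in TNF+. Without the TNF+ cell with most of their UMIs Ccl7 was at 0.84, Csf1 at 0.43 and Cxcl12 at 0.68, whereas Ccl2 stayed at 2.24 and Cxcl1 at 1.31. Of the 42 Cxcl10 UMIs in TNF-, 40 came from 1 cell. Il6 differed by 0.67 (interval -0.02 to 1.31), and by -0.44 without 1 TNF+ cell. Genes downstream of NF-kB gave no common direction, with a median of 0.01 over 16 genes, 3 higher (Sod2, Tnfrsf1a and Nfkbib) and 1 lower (Birc3). Tnfrsf1a was at 0.89 and Nfkbib at 0.53 without 1 TNF+ cell each. Interferon-stimulated genes had a median of 0.49 over 11 genes with 1 higher, Gbp2, of which 89% of the TNF+ UMIs came from 1 cell.

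**Figure D3:**
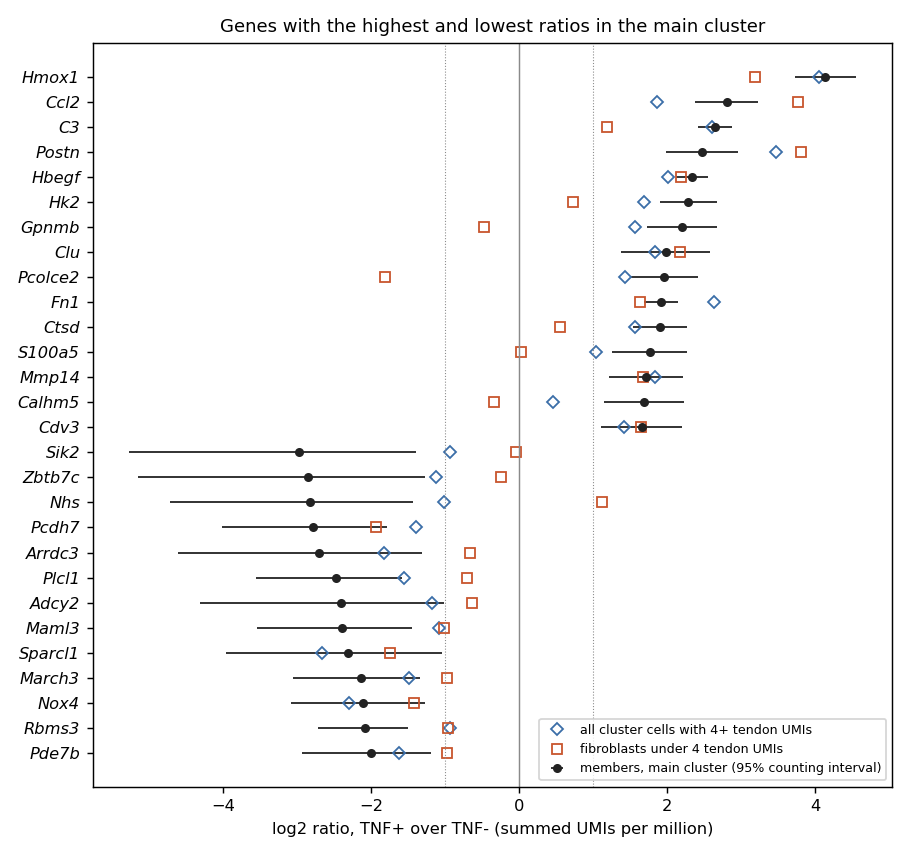
Log2 ratio of TNF+ over TNF- (horizontal axis, from summed CPM) for the 15 genes named higher and 13 named lower. Black points are tendon-like cells of the main cluster with 95% counting intervals, diamonds add the main-cluster cells that the exclusions removed, squares are fibroblasts with fewer than 4 tendon UMIs, and dotted lines mark 2-fold. C3 lies at 2.65, 2.61 and 1.19 in these groups of cells, whereas Sik2 lies at -2.98, -0.94 and -0.04. The mix of clusters behind the squares differs by genotype.

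The other genes named higher were Hbegf, an epidermal growth factor receptor ligand (366 and 1840 CPM, 2.33 higher, in 63 of 109 and 21 of 25 cells), the hexokinase gene Hk2 (120 and 583 CPM), the lysosomal glycoprotein gene Gpnmb (82.3 and 377 CPM), the calcium-binding S100a5, the membrane protease gene Mmp14 (91.9 and 302 CPM), Calhm5 and Cdv3. Leukocytes had 16.8 and 25.8 CPM of Hbegf. Gpnmb was higher by 2.20 in the main cluster and differed by -0.47 in fibroblasts with fewer than 4 tendon UMIs. In leukocytes Gpnmb was higher by 3.71 in TNF+ (2.69 and 35.3 CPM). Single TNF+ cells carried 76.2% of the UMIs of Postn, 61.7% of Fn1 and 74.8% of Ctsd, and without that cell the differences were 0.58, 0.72 and 0.10. With the removed cells of the main cluster included (259 TNF- and 62 TNF+ cells with at least 4 tendon UMIs), Calhm5 was at 0.45 and the other 14 stayed at 1.04 or more. Of the 15, 12 were also above 0 in fibroblasts with fewer than 4 tendon UMIs and 9 were 2-fold or more higher there. The mix of clusters in those fibroblasts differed by genotype.

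A gene of the tendon surface and a gene of a signalling antagonist were among those 2-fold higher. Prg4, which encodes the joint lubricant lubricin, was higher by 1.18 (939 and 2132 CPM), with a median of 4 UMIs in TNF- and 13 in TNF+ cells. The shares of cells with Prg4 did not follow, at 88 of 109 and 18 of 25. In fibroblasts with fewer than 4 tendon UMIs, Prg4 was seen in 24.4% of TNF- and 48.5% of TNF+ cells. Wif1, a secreted Wnt inhibitor, was higher by 1.31 (199 and 493 CPM) and was seen in 32 of 109 and 18 of 25 cells (14.2% and 56.5% thinned, against 0 of 1000 and 0.154% of thinned leukocytes, of which 0 of 1000 allows up to 0.3%). Without 1 TNF+ cell Wif1 was at 0.99. Tppp3, a marker of tendon sheath cells, had 71 UMIs in TNF- and 1 in TNF+, a log2 difference of -3.92 with an interval of -9.24 to -1.39. A single TNF- cell held 32 of the 71, and without it the difference was -3.07. Among all tendon-like cells, thinned shares with Tppp3 were 12.1% in TNF- and 2.56% in TNF+. They were 50.9% and 18.9% in all other fibroblasts and 20.3% and 26.4% in leukocytes. The part of free RNA in the Tppp3 difference was not tested.

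The 15 genes lower by the naming rule included Sik2, Zbtb7c, Nhs, Pcdh7, Arrdc3, Plcl1, Adcy2, Maml3, Sparcl1, March3, Nox4, Rbms3 and Pde7b. Sik2, a salt-inducible kinase gene with 111 and 3 UMIs, was at -2.98 (interval -5.27 to -1.39), and Rbms3, an RNA-binding protein gene with 496 and 25 UMIs, was at -2.08. They were mostly long genes, with a median span of 327 kb on the genome against 13.1 kb for the genes named higher and 33.8 kb for all genes compared. With the removed cells of the main cluster included, Sik2 was at -0.94, Rbms3 at -0.94 and the others named here between -2.66 and -1.01. The pattern held across genes, since the median log2 difference was 0.18 over genes of up to 12.8 kb and -0.32 over genes of 84.7 kb and more. It was not particular to tendon-like cells, with medians of 0.26 and -0.53 in fibroblasts with fewer than 4 tendon UMIs and of 0.18 and -0.53 in leukocytes. The counts include reads in introns, and the part of this difference that reflects unspliced RNA was not tested. Of the 15, 14 were below 0 in those fibroblasts, where 5 were 2-fold or more lower, and 13 were below 0 in leukocytes. Ribosomal protein genes took 7.03% of the UMIs of TNF- cells and 9.54% of TNF+ cells of the main cluster, and mitochondrial genes 3.05% and 2.42%.

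Markers of other cells were low in the main cluster. Summed CPM in TNF- and TNF+ were 66.3 and 30.2 for 16 skeletal muscle genes, 78.0 and 116 for 14 leukocyte genes, 26.7 and 30.2 for 8 endothelial genes, 55.6 and 80.5 for 8 mural genes, and 119 and 171 for 8 Schwann cell genes. Erythroid genes had 312 CPM in TNF- and 0 in TNF+, with 163 of the 165 TNF- UMIs of Hbb-bs in 1 cell, and adipocyte genes 100 and 40.2. In the 16 TNF+ cells outside the main cluster, mural genes summed to 838 CPM and leukocyte genes to 77.4. The part of these transcripts in the differences was not tested.

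Further lists gave these counts of genes 2-fold or more higher and lower in TNF+ cells of the main cluster, beside the background of 8.17% and 12.0%. Matricellular genes had 6 higher and 1 lower of 18, but 1 of the 6 stayed 2-fold higher without the TNF+ cell with most of its UMIs. Matrix proteases and inhibitors had 5 and 0 of 13, of which 3 stayed, and elastic fibre genes 3 and 0 of 13, of which 3 stayed. Other collagens had 2 and 0 of 8 and Wnt antagonists and receptors 2 and 0 of 5, of which 0 stayed in either list. TGF-beta and BMP genes had 2 and 0 of 19, mechanosensing genes 2 and 0 of 15, and glycolysis and hypoxia genes 1 and 1 of 15. Tendon sheath, lining and progenitor genes had 2 and 1 of 8, posterior Hox genes 1 and 1 of 5, cartilage genes 1 and 1 of 3, bone genes 0 and 1 of 2, acute-phase genes 1 and 0 of 2 and proliferation genes 0 and 0 of 2. Lists of so few compared genes, and shares near the background, are no result about a list. Ribosomal protein genes had 2 and 0 of 14, with a median of 0.64.

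**Figure D4:**
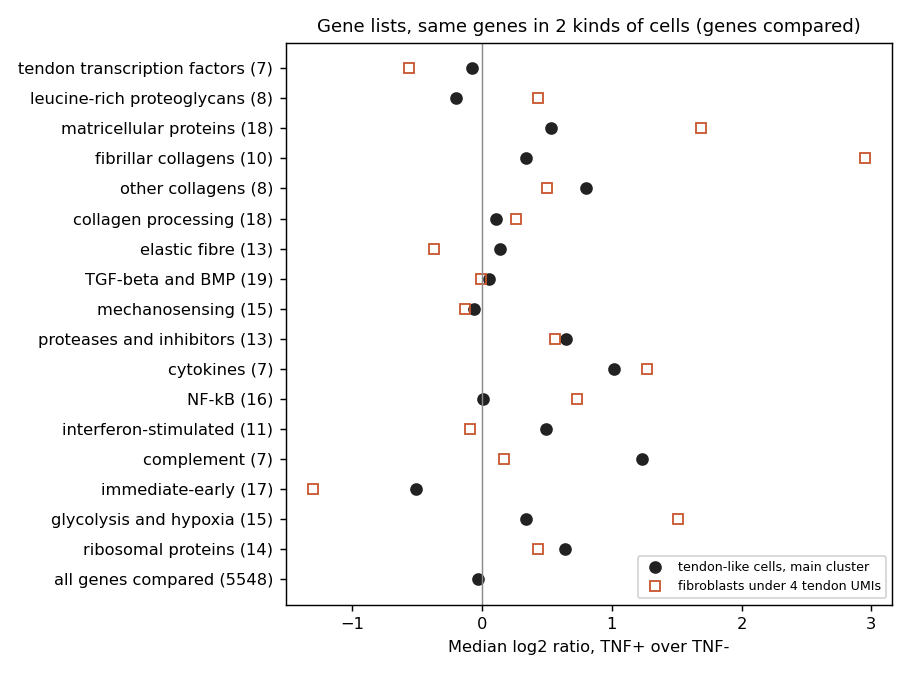
Median log2 ratio of TNF+ over TNF- (horizontal axis) over the compared genes of each list, whose number is in parentheses. Filled circles are tendon-like cells of the main cluster and open squares fibroblasts with fewer than 4 tendon UMIs, whose mix of clusters differs by genotype. Complement genes lie at 1.23 and 0.17 in these cells, immediate-early genes at -0.51 and -1.30, and all genes at -0.03 in the main cluster.

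Against fibroblasts with fewer than 4 tendon UMIs, the main-cluster cells carried a broad tendon profile in both libraries. There were 3034 such fibroblasts in TNF- and 394 in TNF+. Of the 394 TNF+ ones, 147 lay in 1 of the 2 TNF+ clusters named above and 85 in the other. Of the 3034 TNF- ones, 0 and 1 lay there. In both libraries 229 of 5111 genes (4.48%) were 2-fold or more higher in tendon-like cells and 247 (4.83%) were 2-fold or more lower. The same comparison of all 162 cells with the 45 TNF- and 91 TNF+ fibroblasts that passed every exclusion gave 109 of 4918 (2.22%) higher and 121 (2.46%) lower. The genes named by the rule over all 162 cells were Cilp2, Fmod, Angptl7, Ptx4, Wif1, Mkx, Cpxm2, S100a5, Chodl, Sema3a, Ccn2, Col11a1, Fibin, Kcnma1, Adamts3, Scx, Ptgis, Egfl6, Itgbl1 and Mfap4. The clusters were drawn from these genes, so the values are a description.

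Fmod had 6967 CPM in TNF- tendon-like cells and 6.34 in the fibroblasts, and 11254 and 390 in TNF+. Cilp2 had 476 and 0.547 CPM in TNF-, and 613 and 2.02 in TNF+. Both proteins belong to the matrix around collagen fibrils. Scx had 159 and 0.364 CPM in TNF-, and 151 and 17.6 in TNF+. Mkx had 207 and 2.41 CPM in TNF-, and 287 and 2.45 in TNF+. Of 6 lineage transcription factors compared in both libraries, 4 were 2-fold or more higher in tendon-like cells and 0 lower. The shares of all genes compared were 4.48% and 4.83%. The 4 were Scx, Mkx, Egr2 and Eya2. Egr2 was seen in 4 TNF+ cells, 1 of which held 8 of its 11 UMIs. Without that cell its TNF+ level was 16.2 CPM, below the 23.9 CPM of the fibroblasts.

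Secreted factors and channels were among the 20 genes named in this comparison. The angiopoietin-like gene Angptl7 had 559 CPM in TNF- tendon-like cells and 5.55 in fibroblasts, and 1202 and 0.865 in TNF+. Wif1 had 199 CPM against 1 UMI in all TNF- fibroblasts with fewer than 4 tendon UMIs (log2 difference 13.26, interval 10.77 to 18.57), and 493 against 25.4 CPM in TNF+. The others were S100a5, the pentraxin Ptx4, the lectin Chodl, the axon guidance genes Sema3a and Ntng1, the channel genes Nalcn, Cacnb2 and Grik4, Gas2, Ccdc3, the collagen prolyl hydroxylase P3h2, the transcription factor Fli1, Cpxm2, Ccn2 and Hbegf. Hbegf and Ccn2 were thus higher in tendon-like cells than in fibroblasts of either library as well as higher in TNF+ than in TNF- tendon-like cells.

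**Figure D5:**
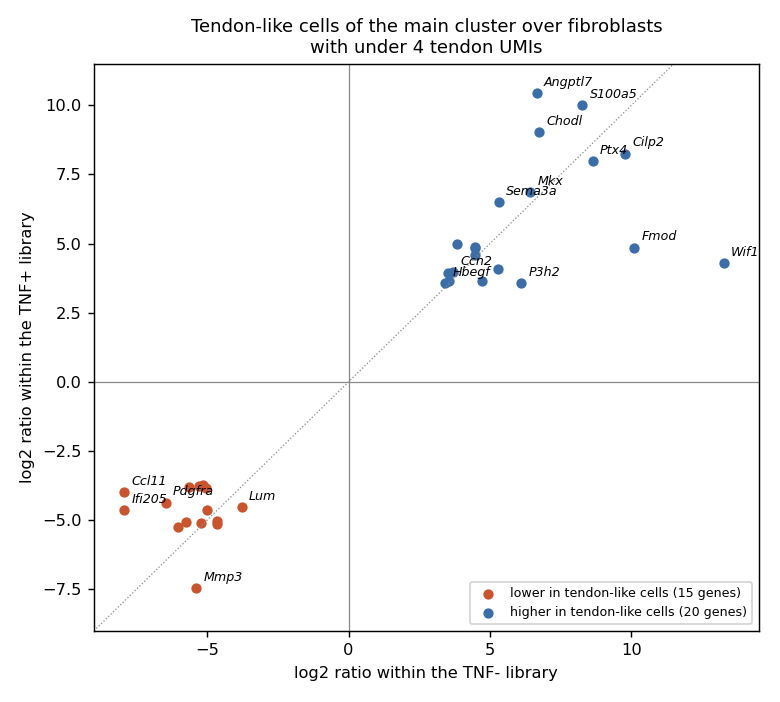
Log2 ratio of main-cluster tendon-like cells over fibroblasts with fewer than 4 tendon UMIs in the TNF- (horizontal) and TNF+ library (vertical), 1 point for each of the 20 genes named higher and the 15 named lower, with a dotted line where both ratios are equal. Named higher genes such as Mkx (6.43 and 6.87) lie in the upper right and named lower genes such as Lum (-3.77 and -4.54) in the lower left.

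The fibril collagens split by type. Col11a1, which nucleates thin fibrils, had 376 CPM in TNF- tendon-like cells and 0.709 in fibroblasts, and 654 and 105 in TNF+. Col22a1, a collagen of the muscle-tendon junction, was higher by 10.84 and 5.06 on the log2 scale (111 against 0.0607 CPM in TNF-, where 14 of 109 tendon-like cells held it, and 206 against 6.20 in TNF+). In TNF+ it was seen in 2 of 25 cells, with 35 of the 41 UMIs in 1 cell, so that value rests on 1 cell. Col3a1, Col5a1, Col5a3, Col27a1 and Col14a1 were 2-fold or more lower in tendon-like cells of both libraries, as were Col6a1, Col6a2 and Col6a3. Of the proteoglycans, Prelp was higher (2.72 and 3.17) and Lum lower (-3.77 and -4.54). Sox6, a cartilage factor, had 199 CPM in TNF- tendon-like cells and 2.21 in fibroblasts, whereas Sox9 had 11.8 and 55.6 CPM in TNF-, and 0 UMIs against 72.9 CPM in TNF+.

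The 15 genes named lower held surface markers of other fibroblasts and inflammatory genes. Pdgfra, the receptor that marks most synovial fibroblasts, had 6.41 CPM in TNF- tendon-like cells and 565 in fibroblasts, and 15.1 and 311 in TNF+. Ly6a and Cd34 mark progenitor-like fibroblasts. Ly6a had 13.9 and 738 CPM in TNF-, and 0 UMIs against 498 CPM in TNF+, and Cd34 had 21.4 and 688 in TNF-, and 5.03 and 124 in TNF+. Of 13 tendon sheath, lining and progenitor genes compared 7 were 2-fold or more lower in both libraries and 0 higher. The same held for 5 of 9 cytokine genes, 5 of 10 complement genes, 5 of 16 NF-kB genes and 5 of 13 interferon-stimulated genes, with 0 higher in each. Of all genes compared, 4.83% were 2-fold or more lower in both libraries and 4.48% higher. The TNF+ fibroblasts of this comparison include the 147 and 85 cells of the 2 TNF+ clusters. The eosinophil attractant Ccl11 had 3.21 and 780 CPM in TNF-, and 0 UMIs against 241 CPM in TNF+. Mmp3, Ifi204, Cp, Ecm1, Vcan, Ifi205, Spon1, Tnfaip2, Lsamp and Plau made up the rest with Lum.

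Within the main cluster, levels of tendon genes were related cell by cell for some pairs only. Over the 109 TNF- cells Spearman's rho of CPM was 0.50 for Tnmd and Fmod, 0.44 for Chad and Fmod, 0.45 for Chad and Wif1, and 0.42 for Chad and Angptl7. Kera went with Prg4 (0.35) and showed little relation to Tnmd (0.13), Chad (0.03) or Thbs4 (-0.06). Cilp2 went with Col1a1 (0.46). All cells share 1 library and differ in depth, and counts per cell are low, so these are descriptions.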

How the data were processed

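Cells of synovium and lung were profiled by 3′ single-cell RNA-seq, with 1 library per genotype and tissue. The authors counted reads with Cell Ranger 7.0.1 at its defaults, which include intronic reads, against mm10, and deposited raw UMI counts for 32285 genes per cell barcode. The human transgene is not among these genes. The study's own filter of 200 to 5000 genes per cell was not applied; a limit of 5000 genes was an alternative. No doublets were removed. Of the 2 synovium libraries, 6638 and 3498 barcodes passed the filter, and the 121 and 41 tendon-like cells held 1105937 and 625052 UMIs.

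Per library, the UMIs of a set of cells were added up and scaled to CPM by their total. Genes with a mean of at least 20 CPM were compared, and a difference of 2-fold was counted. A count of 0 was set to a floor of 3 UMIs. With 1 library per group no test was made. Clusters came from scanpy 1.11.5 and leidenalg 0.10.2 (2000 variable genes without those of the rule, 30 principal components, 20 neighbours, resolution 0.8). Python 3.11.15, numpy 2.4.6, scipy 1.17.1 and matplotlib 3.10.9 were used. Gene positions came from GENCODE vM21, which matched 32235 genes by identifier. Scripts were tested on simulated data. In counts simulated for the main-cluster comparison with counting error only, 436 unchanged genes (7.87%) passed 2-fold, and 1 had its interval past 2-fold. Of 198 changed genes, 195 passed 2-fold in the right direction.

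Named genes needed at least 100 UMIs over both libraries, a mean of 50 CPM, detection in 10% of the cells of the higher library and an interval wholly past 2-fold, and the 15 largest on each side were taken, without predicted gene models. Some genes are not reported here. Against fibroblasts the 20 with the largest smaller ratio were taken with the same minimums, beside genes of 32 lists; the 15 lower there were added later. The cells and gene lists were chosen with earlier results of these data known. The comparison within the main cluster and the one with fibroblasts under 4 tendon UMIs, and the values without the cell that held most UMIs of a gene, were added after seeing the data.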

Additional observations from a re-analysis of the deposited data

How the results depend on the processing

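The share of tendon-like cells among fibroblasts, 3.44% in TNF- and 7.06% in TNF+, stayed higher in TNF+ under each alternative that kept fibroblasts as the denominator. It was 6.01% and 15% when cells were thinned to 3000 UMIs, 2.59% and 3.96% without tendon-like cells that held 3 or more UMIs of another cell type's markers (30 TNF- and 18 TNF+ cells), and 7.37% and 10.7% for all cells of the main cluster with 4 or more tendon UMIs. The TNF+ share was 4.99% with 2 or more tendon genes required and 4.30% (3.10% in TNF-) for the main cluster only. Over all barcodes past the filter the shares were 1.82% and 1.17%.

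Over all tendon-like cells, genes 2-fold or more higher in TNF+ numbered 807, and 492 with cells weighted equally, 520 with at most 5000 genes per cell, 431 with 2 or more tendon genes, 513 without cells that held other markers, 454 in the main cluster and 273 at a mean of 100 CPM. Genes 2-fold or more lower numbered 880, and 1396 at a mean of 10 CPM and 206 at 100 CPM. Within the main cluster the counts of 454 higher and 665 lower were 808 and 1195 at a mean of 10 CPM, 96 and 90 at 100 CPM, and 259 and 408 for all its cells with 4 or more tendon UMIs. With median-of-ratios scaling they were 434 and 704, and without the cell with most UMIs of each gene 188 and 506. Against other fibroblasts the counts of 109 higher and 121 lower were 205 and 197 with 2 or more tendon genes, 217 and 244 without cells that held other markers, 187 and 211 with cells weighted equally, 164 and 193 at 10 CPM, 31 and 18 at 100 CPM, and 229 and 247 for the main cluster against fibroblasts with fewer than 4 tendon UMIs. The higher count was 182 with at most 5000 genes and 72 against all other fibroblasts. A stricter minimum compares fewer genes. The cause was not tested for the other alternatives.

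Csmd1 changed sign to -1.23 in the main cluster, with an interval of -6.65 to 1.56. It had 11 TNF- and 1 TNF+ UMIs there, below the minimum level for comparison. Mfap4 changed sign to -0.01 in the TNF+ library against all other fibroblasts. Of the values of single genes, 264 of 332 over all cells, 150 of 180 in the main cluster and 193 of 240 against other fibroblasts moved by no more than the longer arm of their counting interval, which has no end for a gene at 0 in 1 library, or by no more than 1 on the log2 scale against other fibroblasts. No paired analysis was possible because each genotype had 1 library per tissue and the result comes from no test. Depth limited what could be seen in the main cluster, where 0 UMIs allow up to 3.21 CPM in TNF- and 15.1 CPM in TNF+. Each genotype is 1 pool of mice, so no spread between mice could be measured.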
